A study of Mus musculus with 2 samples.

Results

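The ubiquitin-specific proteases (USP genes) are the largest family of deubiquitinases, the enzymes that take ubiquitin off proteins. Members were all mouse genes of the deposited gene tables whose GENCODE symbol is Usp followed by a number, with or without an added x or l, and Y-linked genes were left out. This gave 49 genes of 43346, of which 5 lie on the X chromosome. The levels come from polyadenylated RNA of G1E-ER4 cells, a mouse erythroid line without functional Gata1 of its own that carries GATA1 joined to the hormone-binding part of an estrogen receptor. There was 1 group, cells given 10 nM 17beta-estradiol for 24 h to switch on GATA1 and start differentiation, with 2 libraries that the labels call biological replicates 1 and 2. The labels give both libraries the same biosample record, so their spread may reflect technical variation alone. Untreated cells were not analysed here. The results therefore describe 1 state of 1 cell line and the difference between 2 libraries of it.

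Ubiquitin is attached to lysines of target proteins as single units or chains, and USP enzymes cut the bond with a catalytic cysteine that works together with a histidine. The USP fold recurs across the family, while the parts around it differ and direct each member to its own substrates, such as histones, DNA repair proteins, receptors on endosomes or the proteasome. Differentiating erythroid cells remodel their proteins in part through the ubiquitin system.

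The deeper library, replicate 1, held 70451042 estimated counts and replicate 2 held 13841487, so replicate 1, 5.09-fold deeper, gives the more precise values. Levels are in transcripts-per-million units (TPM), which are corrected for transcript length, and are given for both libraries or as mean ± SD (n = 2). All 7 erythroid markers examined had at least 1 TPM in both libraries, and 0 of 10 markers of myeloid, lymphoid, stromal and pluripotent cells did. Gata1 is among the 7, and its level cannot be told apart from that of the introduced GATA1. The 10 markers of other cells summed to 0.97 TPM in replicate 1 and 2.09 TPM in replicate 2, and Cd3e, Nanog and Pou5f1 had no counts.

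The catalytic cysteine of a USP enzyme lies in a short stretch of conserved residues, the Cys box. The PROSITE pattern for this stretch was searched in the longest complete coding transcript of 48 members in GENCODE M21 (Usp44 has none in these tables), and it matched 39 of them. Over 21256 protein-coding genes it matched 46 (0.216%). The other 7 were Cyld, the Y-linked copy Usp9y and 5 genes of the Usp17-like group. The PROSITE pattern for the histidine stretch matched 43 members. The cysteine codon was TGC in 20 members and TGT in 19, and the Cys box lay within 1 exon in 34. The coding bases of the Cys box are shown for 8 members with high levels, because later values turn on whether the transcripts that hold those levels contain them. Positions are on GRCm38 (mm10), the sequence is that of the coding strand, and capitals mark the cysteine codon.
Usp1, chr4:98928307-98928354, plus strand: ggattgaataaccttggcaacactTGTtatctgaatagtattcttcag
Usp19, chr9:108495645-108495692, plus strand: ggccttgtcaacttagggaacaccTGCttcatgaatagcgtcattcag
Usp4, chr9:108366831-108366878, plus strand: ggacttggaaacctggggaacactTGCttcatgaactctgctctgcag
Usp49, chr17:47672822-47672869, plus strand: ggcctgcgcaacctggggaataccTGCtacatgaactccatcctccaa
Usp3, chr9:66543954-66544001, minus strand: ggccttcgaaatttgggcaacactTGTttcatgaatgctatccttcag
Usp7, chr16:8707668-8707715, minus strand: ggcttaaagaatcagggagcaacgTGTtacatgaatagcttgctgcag
Usp38, chr8:80993216-80993263, minus strand: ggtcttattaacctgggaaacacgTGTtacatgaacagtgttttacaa
Usp5, chr6:124822558-124822605, minus strand: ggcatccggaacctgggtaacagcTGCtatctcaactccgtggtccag

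Each run is 48 bases and codes for 16 residues. The pattern did not match in Usp39, a splicing factor known to lack the catalytic residues. Nor did it match in Usp16, Usp21, Usp25, Usp28, Usp45, Usp48, Usp53 and Usp54. This says only that the letters of this pattern are not in the transcript searched for each gene.

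Most of the family was present in these cells. With at least 1 TPM in both libraries taken as detected, 32 of 49 members (65.3%) were detected, against 33.1% of all protein-coding genes. A further 4 members reached 1 TPM in replicate 1 only (Usp37, Usp25, Usp50 and Usp34) and 1 in replicate 2 only (Usp2). In 12 members both libraries were under 1 TPM. The median level over the 49 members was 7.25 TPM, and the median over all 21474 protein-coding genes was 0.035 TPM. At least 10 TPM in both libraries was reached by 14 members, a count that was not made over all protein-coding genes.

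A few members held most of the family's level. The members summed to 990 TPM in replicate 1 and 1540 TPM in replicate 2. The 5 highest members of each library held 57.5% and 79.6% of that sum, and Usp1 alone held 19.1% and 50.1%. Without Usp1 the sums were 801 TPM and 769 TPM, so the higher sum of replicate 2 lay in Usp1. Across the 49 members, the TPM values of the 2 libraries had a Spearman correlation of 0.90, and across the 32 detected members 0.77, where the 7107 detected protein-coding genes had 0.81. These correlations run over genes of 1 pair of libraries, which are not independent replicates.

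**Figure D1:**
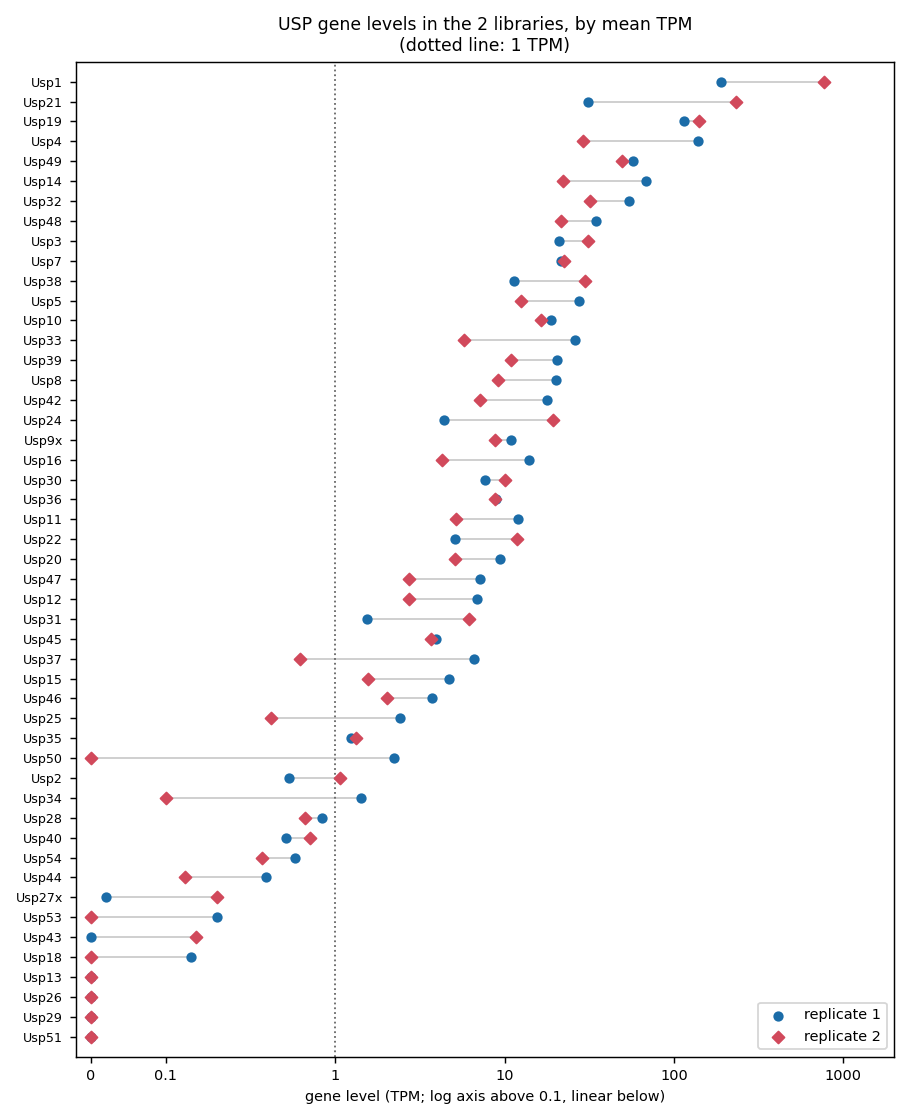
TPM of each of the 49 USP genes (log axis above 0.1 TPM, linear below) in replicate 1 (circles) and replicate 2 (diamonds), ordered by mean level, with a dotted line at 1 TPM. Usp1 is the highest in both libraries, and Usp13, Usp26, Usp29 and Usp51 are at 0 in both.

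Among the members that act on DNA repair and the cell cycle, 7 of 10 were detected, and their median level was 4.29 TPM. Usp1, which removes ubiquitin from FANCD2 and PCNA (chr4:98923810-98935543, ENSMUSG00000028560), was measured at 189 TPM and 771 TPM (480 ± 411 TPM; as throughout, replicate 1 is given first). It ranked 1 of 49 in both libraries, but the libraries differed about as much as its mean. Usp10, which acts on p53 and binds the stress granule protein G3BP1, had 18.7 TPM and 16.3 TPM. Usp11, a regulator of homologous recombination, had 12.02 TPM and 5.15 TPM. Usp47, which acts in base excision repair, had 7.12 TPM and 2.71 TPM, Usp45 had 3.91 TPM and 3.68 TPM, and Usp37 had 6.57 TPM and 0.62 TPM. Usp28 was under 1 TPM in both libraries, at 0.84 TPM and 0.66 TPM. The lowest of the group was Usp29, with 0 counts in both libraries. Usp12 (6.85 TPM and 2.71 TPM) and Usp46 (3.71 TPM and 2.02 TPM), which like Usp1 are activated by the WD-repeat protein UAF1, were far below Usp1 on the whole gene. On complete coding transcripts, the levels of Usp1 and Usp12 were closer: Usp1 had 5.7 TPM and 5.85 TPM, and Usp12 had 6.85 TPM and 2.71 TPM.

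In the histone and chromatin group 8 of 11 members were detected, with a median of 9.14 TPM. Usp21, a histone H2A deubiquitinase (chr1:171281945-171287991, ENSMUSG00000053483), was at 30.9 TPM in the first library and 232 TPM in the other. Usp49, which acts on histone H2B (chr17:47630690-47686738, ENSMUSG00000090115), had 57.1 TPM and 49.5 TPM (53.3 ± 5.37 TPM), a spread far smaller than that of Usp21. Usp49 shares 53172 bases on its own strand with the gene model Gm20517, at 0.13 TPM and 0 TPM, and 93 bases with Tomm6 on the other strand, at 226 TPM and 29.7 TPM. Usp3, another H2A deubiquitinase (chr9:66514637-66593142, ENSMUSG00000032376), had 20.96 TPM and 31.2 TPM. Usp7, which stabilises MDM2 and p53 (chr16:8689595-8792308, ENSMUSG00000022710), had 21.5 TPM and 22.3 TPM (21.9 ± 0.559 TPM), among the closest agreements between the libraries in the family. Usp36, a nucleolar deubiquitinase, had 8.88 TPM and 8.8 TPM, Usp42 had 17.8 TPM and 7.2 TPM, Usp16 had 14.0 TPM and 4.26 TPM, and Usp44 had 0.39 TPM and 0.13 TPM. On complete coding transcripts Usp36 had 3.24 TPM and 0 TPM, Usp42 had 3.09 TPM and 0.62 TPM, and Usp16 had 4.04 TPM and 0.67 TPM. Transcripts of Usp36 of any class with the Cys box had 8.85 TPM and 8.23 TPM. Usp22, the deubiquitinase of the SAGA coactivator complex, had 5.09 TPM and 11.8 TPM, but 2.23 TPM and 1.15 TPM on complete coding transcripts. Of its close relatives, Usp27x had 0.02 TPM and 0.2 TPM and Usp51 had no counts.

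The members at membranes and organelles were the group in which all were detected, 7 of 7, with a median of 14.5 TPM. Usp19, anchored in the endoplasmic reticulum (chr9:108490602-108502337, ENSMUSG00000006676), had 115 TPM and 140 TPM (128 ± 17.6 TPM). It ranked 3 in both libraries and, with 26880 and 5689 estimated counts, held more counts than any other member. Usp32, found on Golgi and endosomal membranes (chr11:84984442-85140161, ENSMUSG00000000804), had 54.6 TPM and 31.8 TPM. Usp33 and Usp20, a pair of relatives that act on the beta-2 adrenergic receptor, had 25.9 TPM and 5.75 TPM, and 9.4 TPM and 5.1 TPM. Usp8, which works on endosomes, had 19.97 TPM and 9.09 TPM. Usp30, the deubiquitinase of the outer mitochondrial membrane that opposes parkin in mitophagy, had 7.7 TPM and 10.0 TPM, and it shares 795 bases with Alkbh2 on the other strand. The lowest, Usp35, had 1.24 TPM and 1.32 TPM.

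In ubiquitin recycling, 2 of 3 members were detected. Usp14, which trims chains on the proteasome (ENSMUSG00000047879), had 68.8 TPM and 22 TPM. Usp5, which takes apart free ubiquitin chains (chr6:124815019-124829484, ENSMUSG00000038429), had 27.5 TPM and 12.5 TPM. Usp13, the close relative of Usp5, had no counts in either library. In both detected members replicate 1 was the higher library.

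In growth factor, Wnt and immune signalling, 6 of 10 members were detected, with a median of 6.47 TPM. Usp4, which acts in TGF-beta signalling (chr9:108347853-108392545, ENSMUSG00000032612), stood at 139 TPM and 28.9 TPM (83.7 ± 77.6 TPM), while its relative Usp15 had 4.68 TPM and 1.56 TPM. Usp48, a regulator of NF-kappa-B (chr4:137593755-137658537, ENSMUSG00000043411), had 34.4 TPM and 21.4 TPM. Usp38, which acts in innate immune signalling (chr8:80980733-81014928, ENSMUSG00000038250) was higher in replicate 2, with 11.3 TPM and 29.6 TPM. Usp9x, an X-linked enzyme that stabilises MCL1, had 10.9 TPM and 8.77 TPM, and Usp24 had 4.39 TPM and 19.2 TPM. On complete coding transcripts Usp9x had 1.33 TPM and 0.2 TPM. Under 1 TPM in at least 1 library were Usp25 (2.41 TPM and 0.42 TPM), Usp34 (1.41 TPM and 0.1 TPM) and Usp2 (0.53 TPM and 1.07 TPM). Usp18, which removes the ubiquitin-like modifier ISG15 and is induced by interferon, was the lowest at 0.14 TPM (16 counts) and 0 TPM.

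The group of splicing and catalytically divergent members had 1 of 4 detected. The patterns for the Cys box and the histidine stretch both matched in Usp50, and neither matched in Usp39, Usp53 and Usp54. Usp39, a component of the spliceosome's tri-snRNP, had 20.3 TPM and 11.0 TPM. Usp50 had 2.21 TPM and 0 TPM, and it lies over 50202 bases on the strand opposite Usp8; no source used here says whether strand was used in counting. Usp54 had 0.58 TPM and 0.37 TPM, and Usp53 had 0.2 TPM and 0 TPM. Of the 4 members placed in no group, Usp31 was detected at 1.53 TPM and 6.16 TPM, Usp40 and Usp43 were under 1 TPM in both libraries and Usp26 had no counts.

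The 4 members without a count in either library were Usp13, Usp26, Usp29 and Usp51. With 3 counts as the upper limit of a count of 0, these genes could lie at up to 0.0426 and 0.217 counts-per-million (CPM) in the 2 libraries, for counting error only.

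The transcript tables show which RNA forms carried these levels. A GENCODE transcript is here called complete coding where its coding sequence is annotated with both ends, and partial coding where an end is missing. The other classes are nonsense-mediated decay (a premature stop), retained intron and other noncoding. Complete coding transcripts held 36.8% of the members' TPM in replicate 1 and 19.5% in replicate 2, against 53.3% and 57.2% over all protein-coding genes. In estimated counts, which are not divided by length, they held 72.5% and 66.4% of the members' total, against 76.6% and 78.3%. Without Usp1 the members' shares of TPM were 44.8% and 38.2%. Globin genes weigh on the share of TPM over all protein-coding genes. Hbb-bs had 122878 TPM and 45332 TPM, of which 115 TPM and 424 TPM were on complete coding transcripts. Hba-a1 had 70454 TPM and 35419 TPM, of which 3241 TPM and 35419 TPM were. The share without globin genes was not computed. How the reads of a gene are split among overlapping transcripts is an estimate of the deposited tables, and short transcripts gain TPM per read.

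In Usp1 nearly all of the TPM lay on 1 short form. Usp1-204, a partial coding transcript of 317 bases in 2 exons (chr4:98923964-98928270), had 184 TPM and 765 TPM, which is 97.0% and 99.2% of the gene's TPM and 61.0% and 87.8% of its estimated counts. Its model ends 36 bases short of the Cys box printed above. The complete coding transcripts of Usp1 together had 5.7 TPM and 5.85 TPM (5.78 ± 0.106 TPM). On that measure the libraries lay close together and Usp1 ranked 14 of 49, not 1.

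Usp4 had a like pattern. Usp4-208, a retained intron transcript of 760 bases (chr9:108390876-108392245), held 88.8% and 70.0% of the gene's TPM and lies 23997 bases from the Cys box of Usp4. The complete coding transcripts of Usp4 had 15.2 TPM and 3.66 TPM. In Usp33 the retained intron transcript Usp33-205, of 460 bases, held 90.5% and 89.2% of the TPM, and complete coding transcripts had 2.21 TPM and 0.62 TPM.

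Other forms outside the complete coding class did hold the Cys box. Usp7-206, a nonsense-mediated decay transcript of 4488 bases in 31 exons (chr16:8689600-8738420), contains the Cys box bases and held 93.1% and 97.0% of the TPM of Usp7. Complete coding transcripts of Usp7 had 0.59 TPM and 0.16 TPM, rank 36, but the transcripts of any class with the Cys box had 20.6 TPM and 21.8 TPM, rank 5 of the 39 members with a match. Usp49-204, a partial coding transcript of 1443 bases (chr17:47672720-47681056), also contains it and held 85.3% and 75.6% of the TPM of Usp49. Over all its transcripts with the Cys box Usp49 had 57.0 TPM and 49.5 TPM, whereas its complete coding transcripts had 8.32 TPM and 12.1 TPM.

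By complete coding transcripts the leading members were Usp19, Usp14, Usp3, Usp38, Usp5, Usp39 and Usp49. Usp19 had 84.1 TPM and 113 TPM (98.8 ± 20.7 TPM) on this measure. Usp14 had 65.0 TPM and 18.9 TPM. Usp3 had 20.8 TPM and 30.9 TPM. These 7 were the members with a mean of at least 10 TPM on complete coding transcripts, and 23 of 49 had at least 1 TPM in both libraries. Neither count was made over all protein-coding genes, so they only describe the members. Usp38 has 1 transcript in the tables, so its level was the same on both measures. Usp21 ranked 2 on the whole gene and 28 on complete coding transcripts, where it had 2.33 TPM and 0 TPM. Usp32 ranked 7 and 30, with 1.81 TPM and 0.45 TPM on complete coding transcripts. Usp45 had no complete coding level in either library, with 87.4% and 95.9% of its 3.91 TPM and 3.68 TPM on the nonsense-mediated decay transcript Usp45-203.

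**Figure D2:**
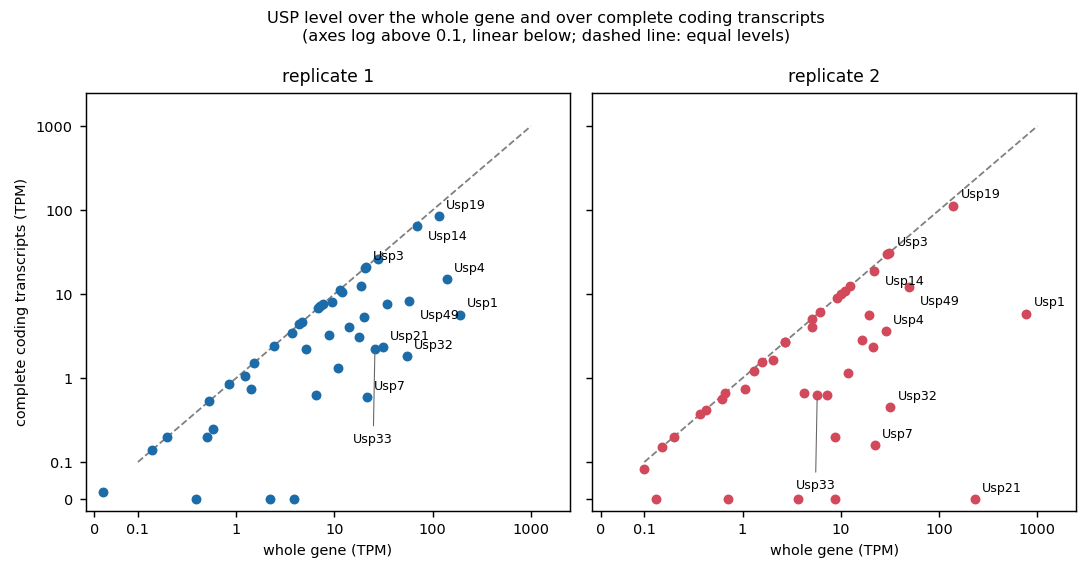
TPM over complete coding transcripts (vertical axis) against TPM over the whole gene (horizontal axis) for each USP gene with a level above 0 in that library, with axes that are log above 0.1 TPM and linear below and a dashed line at equal levels. Usp19, Usp14 and Usp3 lie near the line, and Usp1, Usp4, Usp7, Usp21, Usp32 and Usp33 lie far under it in both libraries.

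The leading transcript of a gene, the one with the highest percent of its TPM, was compared between the libraries for genes with a mean of at least 10 TPM and more than 1 transcript. Of 17 such members, 8 (47.1%) had a different leading transcript in the 2 libraries, against 33.5% of 3700 genes. With 17 members this is no more than a description. The minimum of 10 TPM was set on the whole gene, so a gene could pass it through a form seen in 1 library only. Usp24, for example, had 0 TPM and 13.6 TPM on Usp24-202, and a mean of 4.98 TPM on complete coding transcripts. This bears on every count of the 17, and the same minimum was used for all genes. In 9 of the 17 (52.9%) neither library was led by a complete coding transcript, against 33.1% of 3648 protein-coding genes. In 5 of the 17 (Usp19, Usp14, Usp3, Usp5 and Usp39) both were, whichever transcript it was, against 1804 of the 3648.

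The 8 members with a differing leading transcript were Usp21, Usp19, Usp32, Usp48, Usp10, Usp8, Usp42 and Usp24. In Usp21 the nonsense-mediated decay transcript Usp21-210, of 2091 bases, led in replicate 1 and had 17.2 TPM and 16.5 TPM. The partial coding transcript Usp21-212, of 484 bases, led in replicate 2 and had 7.19 TPM and 209 TPM. The gene's higher TPM in replicate 2 lay on Usp21-212, whose estimated counts were 165 and 827. In Usp19 both leading transcripts, Usp19-204 (58.4 TPM and 39.9 TPM) and Usp19-210 (10.6 TPM and 47.5 TPM), were complete coding, with lengths of 4512 and 4517 bases. In Usp32 the lead passed from Usp32-204, a noncoding transcript with 46.7 TPM and 0 TPM, to Usp32-209, a retained intron transcript with 0 TPM and 28.3 TPM. These 2 forms have 457 and 566 bases and lie away from the Cys box, by 73007 and 76463 bases. In Usp48 both leading transcripts were partial coding, Usp48-212 (7.62 TPM and 0 TPM) and Usp48-204 (4.58 TPM and 10.1 TPM).

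The other 4 passed between classes. Usp8, an endosomal deubiquitinase that acts on the EGF receptor, was led by the noncoding Usp8-203 in replicate 1 (14.6 TPM and 0 TPM) and by the complete coding Usp8-201 in replicate 2 (5.35 TPM and 9.09 TPM). Usp10 was led by the complete coding Usp10-202 (12.1 TPM and 2.86 TPM) and then by the noncoding Usp10-209 (5.32 TPM and 7.2 TPM). Usp42 was led by the noncoding Usp42-203 (9.17 TPM and 0 TPM) and by the retained intron transcript Usp42-204 (5.41 TPM and 6.57 TPM). Usp24 was led by the complete coding Usp24-204 (2.86 TPM and 5.56 TPM) and by the retained intron transcript Usp24-202 (0 TPM and 13.6 TPM). All leading transcripts of these 4 genes were under 15 TPM in both libraries.

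**Figure D3:**
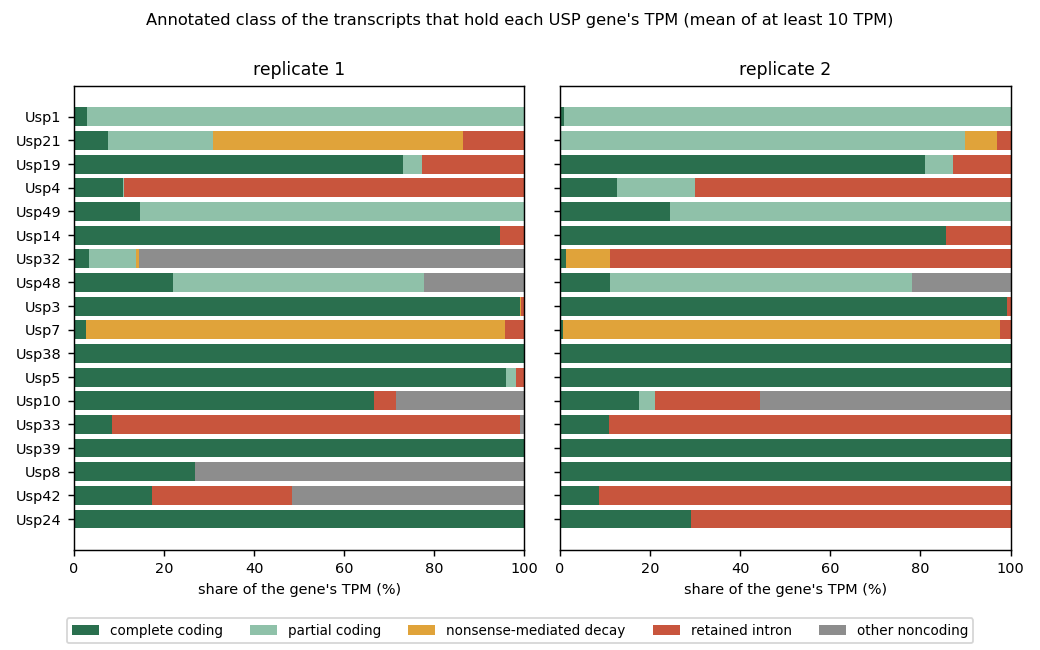
Share of each gene's TPM (horizontal axis, in percent) on transcripts of each annotated class in replicate 1 (left) and replicate 2 (right), for the 18 USP genes with a mean of at least 10 TPM. Usp19, Usp14, Usp3, Usp38, Usp5 and Usp39 are mostly complete coding in both libraries, and Usp1, Usp4, Usp7 and Usp33 are mostly of another class in both.

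The libraries were then set against each other gene by gene. Rounded estimated counts were scaled by the trimmed mean of M values (TMM), and genes with a mean of at least 1 CPM went into an exact binomial test (two-sided), adjusted over all genes tested (Benjamini-Hochberg). This compares the 2 libraries, not conditions, and covers counting error only. Of 39 members tested, 15 (38.5%) differed by 2-fold or more with an adjusted p under 0.05, against 47.8% of 8884 genes. The other 10 members had too few counts to be tested. Higher in replicate 2 were 5 members (12.8%), against 18.0% of genes, and higher in replicate 1 were 10 members (25.6%), against 29.8%. The median log2 ratio of replicate 2 over replicate 1 was -0.67 over the members tested and -0.19 over all genes tested. Scaling by total counts moved the median of all genes to -0.61 and that of the members to -1.07, with 24 members called, 4 higher in replicate 2 and 20 higher in replicate 1. These 24 are 61.5% of the members tested, against 50.5% of genes under that scaling, so whether the members' share of calls lies below or above that of all genes depends on the settings.

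The 5 members higher in replicate 2 were Usp31, Usp1, Usp38, Usp21 and Usp24. Usp1, with 3424 and 1825 counts, had a log2 ratio of 1.84 (95% exact interval 1.76 to 1.92), or 3.58-fold. Usp38, with 3534 and 1508 counts, had a log2 ratio of 1.52 (1.43 to 1.60) and an adjusted p of 3.35e-216 in the exact binomial test. Usp21, with 3356 and 1335 counts, had a log2 ratio of 1.42 (1.32 to 1.51). That is 2.67-fold in scaled counts, where its TPM differed 7.53-fold; the deposited length of Usp21, an average over its transcripts, was 1728 bases in replicate 1 and 644 in replicate 2. Usp24, which had 3155 and 1114 counts, had a log2 ratio of 1.24 (1.14 to 1.34), and with scaling by total counts its ratio of 0.85 was below 2-fold. Usp31, the largest of the 5, had 1060 and 693 counts and a log2 ratio of 2.13 (1.99 to 2.27). On complete coding transcripts Usp1 had 5.7 TPM and 5.85 TPM and Usp24 had 4.39 TPM and 5.56 TPM. Usp21 had 2.33 TPM and 0 TPM on that measure, lower in replicate 2. Usp31 and Usp38 have 1 transcript each, so their levels were the same on both measures.

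The 10 members higher in replicate 1 were Usp34, Usp25, Usp16, Usp4, Usp33, Usp14, Usp15, Usp47, Usp12 and Usp37. Usp4, with 8900 and 320 counts, had a log2 ratio of -2.05 (-2.22 to -1.89) and an adjusted p of 1.85e-218 in the exact binomial test. Usp14, with 10201 and 513 counts, had -1.57 (-1.70 to -1.44). Usp16, a histone H2A deubiquitinase needed in blood stem cells, had a log2 ratio of -2.06 (-2.68 to -1.55) on 827 and 29 counts. It overlaps Cct8 on the other strand by 192 bases, and Cct8 had 52.3 TPM and 17.9 TPM. Usp33, with 1106 and 45 counts, had -1.86 (-2.34 to -1.44). The lowest ratio was that of Usp34, an Axin deubiquitinase in Wnt signalling, at -2.97 (-3.98 to -2.21) on 655 and 12 counts. Usp37 had -1.08 (-1.56 to -0.65), and 24785 of its bases overlap Cnot9 on the other strand, which had 28.1 TPM and 23.9 TPM.

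The members with close values in the libraries include several of the most abundant. Usp19 had a log2 ratio of 0.51 (0.46 to 0.55), Usp49 of 0.30 (0.22 to 0.37), Usp3 of 0.51 (0.38 to 0.63) and Usp7 of 0.21 (0.11 to 0.30). All 4 had an adjusted p under 0.05 in the exact test, which covers counting error only, and none of the 4 reached 2-fold. With scaling by total counts the ratios of Usp19 and Usp3 were 0.11 and 0.11, and those of Usp49 and Usp7 turned to -0.10 and -0.19, so the direction of Usp49 and Usp7 depends on the scaling. The interval of Usp45 took in 0 (-0.21 to 0.28) under TMM.

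**Figure D4:**
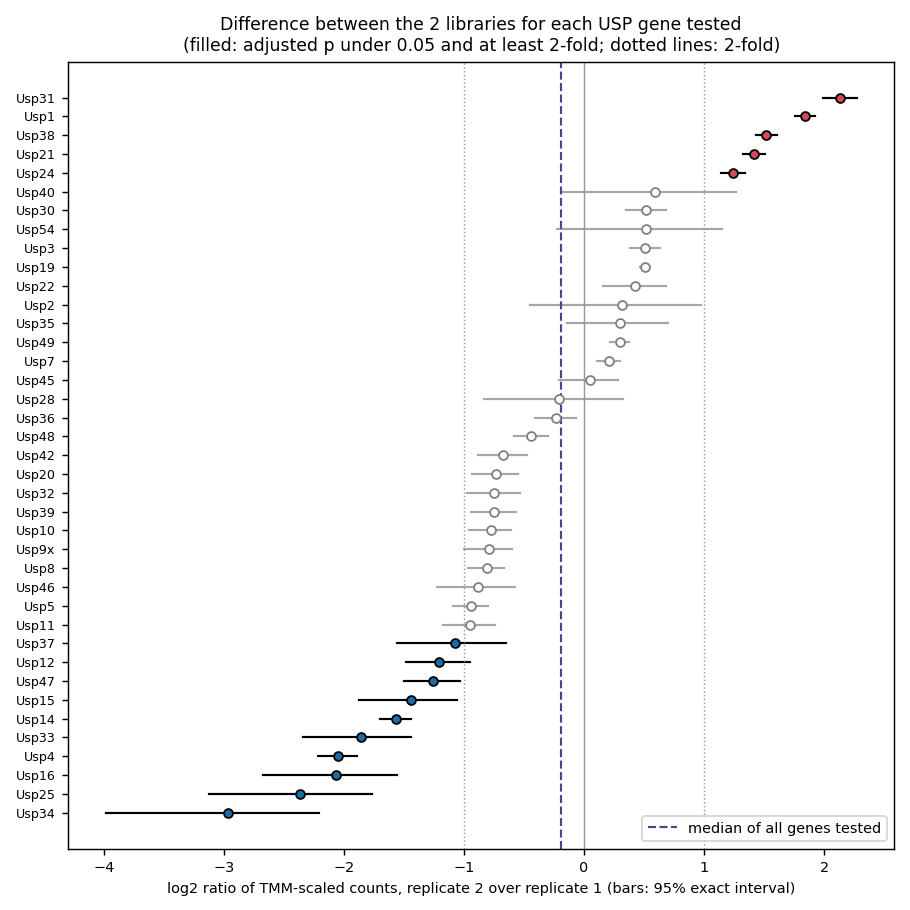
Log2 ratio of TMM-scaled counts, replicate 2 over replicate 1, for the 39 USP genes tested, with 95% exact intervals as bars, filled points for the 15 called members, dotted lines at 2-fold and a dashed line at the median of all genes tested. The 5 filled points on the right are Usp31, Usp1, Usp38, Usp21 and Usp24, and the other 10 filled points lie on the left, under the median of all genes.

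The proteins that USP enzymes work with were set beside them. Of 12 partner genes 9 were detected. Of the 11 tested, 0 were called higher in replicate 2, against 18.0% of all genes, and 4 were called higher in replicate 1, against 29.8%. Wdr48, which encodes UAF1, the activator of Usp1, Usp12 and Usp46, had 10.7 TPM and 10.6 TPM (10.7 ± 0.0495 TPM) and a log2 ratio of 0.12 (adjusted p = 0.12 in the exact binomial test). Wdr20, which joins UAF1 on Usp12 and Usp46, had 15.8 TPM and 2.14 TPM. In the SAGA module of Usp22, Atxn7l3 had 33.2 TPM and 40.0 TPM, and Eny2 had 5.93 TPM and 0.19 TPM on 931 and 5 counts. The 3 highest partners were Ptpn23 (72.7 TPM and 131 TPM) and Stam (38.8 TPM and 68.0 TPM), both of the endosomal sorting machinery in which Usp8 works, and G3bp1 (107 TPM and 26.6 TPM), the partner of Usp10. On complete coding transcripts Ptpn23 was at the same level, while G3bp1 had 25.7 TPM and 10.6 TPM and Stam had 2.01 TPM and 0.24 TPM, lower in replicate 2. The lowest, Wdr20rt, had no counts.

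Other deubiquitinase families gave a scale for these levels. In the Josephin family Josd2 had 462 TPM and 1049 TPM, Josd1 had 41.1 TPM and 234 TPM, and Atxn3 had 1.48 TPM and 0.24 TPM. In the OTU family 11 of 16 genes were detected, led by Otud5 (133 TPM and 237 TPM), Otub1 (85.8 TPM and 109 TPM) and Otud7b (20.3 TPM and 19.0 TPM), and Otud1, Otud6a and Otud7a had no counts. On complete coding transcripts Josd2 had 426 TPM and 939 TPM and Otud5 had 132 TPM and 236 TPM. Josd2 and Otud5 were above the 84.1 TPM and 113 TPM of Usp19, the highest USP gene on that measure. Otud7b had 15.6 TPM and 8.76 TPM on complete coding transcripts.

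In the UCH family 3 of 5 genes were detected. Uchl5, a proteasome deubiquitinase like Usp14, had 189 TPM and 17.8 TPM over the whole gene but 2 TPM and 0 TPM on complete coding transcripts. Bap1 had 50.3 TPM and 48.7 TPM, with 39.1 TPM and 24.6 TPM on complete coding transcripts. Uchl3 had 8.04 TPM and 6.04 TPM, while Uchl1 and Uchl4 had no counts. The list of JAMM deubiquitinases and their relatives had 6 of 11 genes detected, and its lowest gene was Stambpl1 (0 TPM and 0.02 TPM). Its 3 highest genes, Eif3f (330 TPM and 1958 TPM), Eif3h (158 TPM and 54.0 TPM) and Cops6 (177 TPM and 30.1 TPM), are relatives in a translation initiation factor and the COP9 signalosome and give no scale for deubiquitinases. In the MINDY and ZUP1 families 3 of 5 genes were detected, Mindy1 (133 TPM and 267 TPM), Mindy3 (205 TPM and 152 TPM) and Mindy2 (12.9 TPM and 14.8 TPM), and Mindy4 had no counts. On complete coding transcripts Mindy2 was the highest of these, at the same level, while Mindy1 had 4.76 TPM and 3.57 TPM and Mindy3 had 1.89 TPM and 0.76 TPM. Of the USP relatives that the naming rule leaves out, 1 of 8 was detected, Pan2 (1.88 TPM and 1.12 TPM). Uspl1 had 1.65 TPM and 0.1 TPM and Cyld had 0.23 TPM and 0.53 TPM, and 4 of the 5 Usp17-like genes examined had no counts.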

How the data were processed

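Polyadenylated RNA was read from both ends in 2 libraries of 1 group. Per the labels the assembly was mm10, and a text deposited with the files names GENCODE M4 as annotation. The aligner, quantification tool, read filters and use of strand were not given in the sources used here. Deposited gene tables hold estimated counts, which need not be whole, and TPM and FPKM values that correct for effective length (152 and 130 bases below the length). The percent of a gene's TPM on each transcript is a deposited value as well.

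Symbols, positions and transcript classes came from GENCODE M21 by identifier without version, which named 42462 of 43346 genes and 279 of 280 member transcripts. Of those 279, 260 have the same length in M21 as in the tables. Entries other than genes held 3 and 0 counts and were left out. Estimated counts were rounded, and edgeR 4.0.16 in R 4.3.3 gave TMM factors of 1.15 and 0.871, and log2 ratios used a prior count of 0.5. Python 3.11.15 with scipy 1.17.1 ran the tests. They were checked on simulated counts with known folds and counting error alone, so the check does not cover other variation between libraries. The labels name no molecular identifiers, so repeated reads of the same molecule could not be told apart. The intervals take every count as independent and cover counting error only, so they may be too narrow. Protein patterns were searched in the translated coding sequence of M21 transcripts. Alternatives were other minimum levels, FPKM, posterior means, TMM-scaled CPM, TPM without mitochondrial and globin genes, DESeq2 1.42.0 size factors, total counts, other minimum CPM and fold values and leaving out each library.

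The members and lists were chosen with earlier results of these data known. Named genes are the 12 members with the highest mean TPM, every member called different between the libraries with a mean of at least 5 TPM, up to 10 members whose leading transcript differs, every member at 0 in both libraries, and the 3 highest and the lowest of each role group and list. Other genes named, such as Usp9x, Usp12, Usp15, Usp20, Usp22, Usp28, Usp30, Usp34, Usp36, Usp37, Usp44, Usp45, Usp46, Wdr48, Wdr20, Atxn7l3 and Eny2, were chosen after their values were seen. MINDY genes listed under older names were counted once. Some genes that the rule takes in are not reported here.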

Additional observations from a re-analysis of the deposited data

How the results depend on the processing

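The median level over members was 7.25 TPM; it was 8.5 TPM with posterior means, 8.91 TPM once mitochondrial and globin genes were taken out, 17.5 as TMM-scaled CPM, and 5.1 to 6.85 TPM leaving out 1 library in turn. Chosen after seeing the data, complete coding transcripts alone gave a median of 1.62 TPM and a summed level of 332 TPM in place of 1265. Of 39 tested members 15 were called; scaling by total counts gave 24 (14 of the 15 among them; 61.5%, against 50.5% of all genes) and a median log2 ratio of -1.07, no minimum CPM gave 19 of 45 (42.2%, against 40.0%), a fold of 1.5 gave 25 (64.1%, against 66.9%), and a minimum of 10 CPM, which left 28 members to test, gave 9 (32.1%, against 43.9%; 5 higher in replicate 2 and 4 in replicate 1). Members with a differing leading transcript were 8 of 17 (33.5% of all genes), 10 of 23 at a minimum of 5 TPM (34.3%), 4 of 11 at 20 TPM (32.9%) and 5 of 15 with coding transcripts alone (27.1%); fewer members could be compared in the last 2 settings. Apart from this, the cause of these shifts was not tested. No called member's log2 ratio changed sign under these settings, none of which took complete coding transcripts alone for the ratio. Among members not called, Usp49, Usp7, Usp45, Usp35 and Usp2 changed sign with scaling by total counts (-0.10, -0.19, -0.35, -0.10 and -0.08). No paired analysis was possible because the labels give 1 group. Replicate 2 has the lower depth and limits the low members: 12 counts of Usp34 and 29 of Usp16 set the width of their intervals.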
